A study of Mus musculus with 6 samples.

Results

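Stem and progenitor regulators are described here in mouse bone marrow, as 10 genes chosen by name: the surface proteins Kit, Flt3 and Cd34 and the transcription factors Gata2, Myb, Mecom, Erg, Hoxa9, Meis1 and Sox4. All 10 were on the array, among 18193 genes that a probe set with a single symbol measured, and 27 probe sets read them. The tested cells were marrow cells sorted for green fluorescent protein (GFP, n = 3 arrays), and they were set against the unsorted presort marrow of the same pools (n = 3 arrays). All mice were adults aged 3 to 6 months, of both sexes, hemizygous for Tg(Ren1-GFP)2Kwg, a transgene in which the renin gene drives GFP, so the presort samples carry it too and still hold the cells that the sort takes out. For each replicate, femoral marrow of 4 to 5 mice was pooled, part was kept as presort sample and the rest was sorted, which makes the pool and not the mouse the unit of replication. The sort gates also removed erythrocytes and debris by light scatter, and the lower GFP limit admitted 0.1% of autofluorescent cells of mice without the transgene.

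Blood formation starts from rare stem cells, whose progeny commit step by step to the erythroid, megakaryocytic, myeloid and lymphoid lineages. Kit and Flt3 are receptor tyrosine kinases that pass on growth and survival signals from Kit ligand and Flt3 ligand, and Cd34 is a sialomucin found on progenitors and on vessel walls. The 7 transcription factors act in stem and progenitor cells, where Hoxa9 and Meis1 bind DNA together, Gata2, Erg and Mecom maintain stem cells, and Myb and Sox4 are also needed in mice to form early B lineage cells.

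The sorted samples had less RNA of most of these regulators than whole marrow and more of Sox4 and Myb. Cd34 was 11.4-fold and Kit 9.74-fold lower in sorted samples by their fitted differences, Erg, Hoxa9 and Gata2 were 2.49-fold to 2.72-fold lower and Flt3 was 1.74-fold lower, while Sox4 was 6.60-fold and Myb 2.14-fold higher. These folds are of the brightest probe set of each gene. Another probe set of Kit, of Erg and of Hoxa9, and 2 dim ones of Sox4, did not pass. The size of the fall is not settled for Kit, Erg and Hoxa9, nor for Cd34, whose sorted values lay below the median probe set. Of the 10 genes 2 rose and 6 fell (limma, Benjamini-Hochberg adjusted p under 0.05 over all genes), and Mecom and Meis1 did not pass. This fit did not pair the arrays of a pool. With the pool as a replicate block 2 rose and 7 fell, since Mecom passed, where 2860 of 18193 genes rose and 3548 fell. In the unpaired fit 14.5% of all genes were called higher and 18.1% lower, so calls were common on these arrays. The sorted and presort arrays did not overlap for 2 genes that lay higher and 7 that lay lower in sorted samples, where 20.9% and 23.6% of all genes did the same. The median difference of the 10 genes was -1.06 on the log2 scale, against -0.0021 over all genes. In these bulk samples fewer cells of a type and less RNA per cell cannot be told apart.

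All values are intensities on the scale that the authors deposited, where the median probe set stood at 66.0 on each array, and a difference is sorted minus presort on the log2 scale with its standard error (SE) from limma. Levels of different genes were not compared, since each probe set has its own response. Ptprc, the CD45 antigen of white blood cells, was bright in both groups, at a mean of 14.10 ± 0.11 in sorted and 13.96 ± 0.12 in presort samples (SD, log2, n = 3 each). It belongs to a list of 5 leukocyte genes, of which 1 rose, 1 fell and 3 did not pass, Ptprc among these. RNA quality moved with the groups. For beta-actin the signal at the 3' end was above that at the 5' end by 2.05 ± 0.98 in sorted and 0.96 ± 0.15 in presort samples (SD, log2, n = 3 each; exact permutation test, two-sided, p = 0.1, the smallest that 3 against 3 arrays allow), and sorted replicate 1 stood apart at 3.17. Without that array 2 of the regulators were called higher and 7 lower, and with the 3' to 5' difference as a covariate 2 were called higher and 6 lower.

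**Figure D1:**
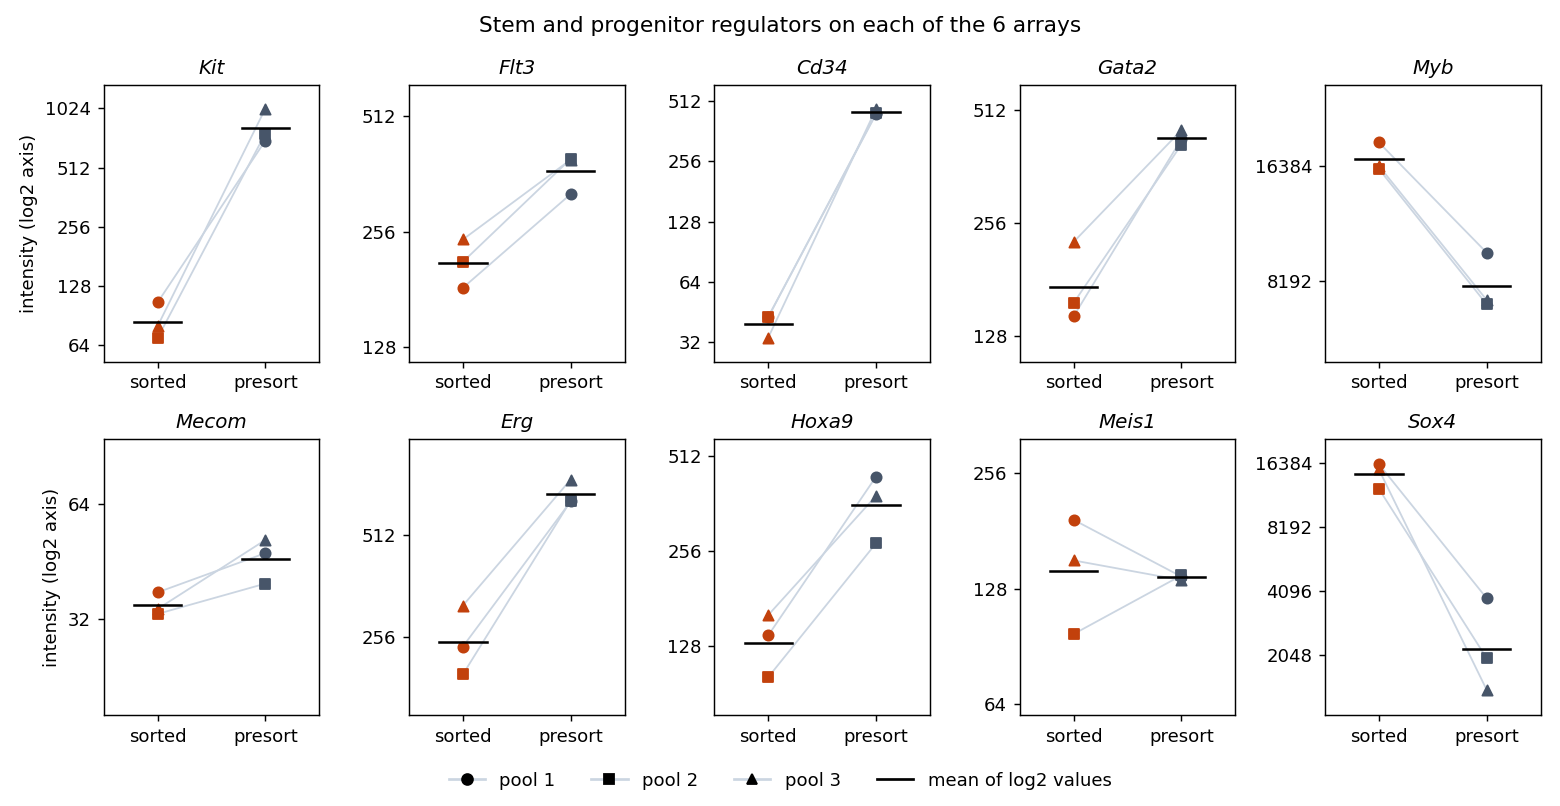
Intensity of the 10 regulators on each array, on log2 axes whose range differs between panels. Points are arrays, their shape gives the pool, grey lines join the arrays of a pool and black bars are group means of the log2 values. All 3 sorted arrays lie below all 3 presort arrays for 7 genes and above them for Myb and Sox4, and only for Meis1 do the groups overlap.

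The DNA just upstream is printed for the 2 genes that rose and the 2 with the largest falls, so that the promoters on each side can be read together. The sequences are from RefSeq (GRCm38.p6), in the direction of transcription, from 250 bases before to 50 after the start of the gene. They lie at chr13:28953650-28953949 (minus strand) for Sox4, chr10:21160935-21161234 (minus strand) for Myb, chr5:75574737-75575036 (plus strand) for Kit and chr1:194938571-194938870 (plus strand) for Cd34. Capitals mark matches, on either strand, to the GC box GGGCGG and the E-box CAGCTG.
Sox4: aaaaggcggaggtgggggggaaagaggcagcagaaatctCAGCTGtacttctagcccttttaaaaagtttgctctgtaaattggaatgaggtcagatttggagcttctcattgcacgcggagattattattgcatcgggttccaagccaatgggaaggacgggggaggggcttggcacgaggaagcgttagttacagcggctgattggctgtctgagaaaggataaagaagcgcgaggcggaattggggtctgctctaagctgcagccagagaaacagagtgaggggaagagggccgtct
Myb: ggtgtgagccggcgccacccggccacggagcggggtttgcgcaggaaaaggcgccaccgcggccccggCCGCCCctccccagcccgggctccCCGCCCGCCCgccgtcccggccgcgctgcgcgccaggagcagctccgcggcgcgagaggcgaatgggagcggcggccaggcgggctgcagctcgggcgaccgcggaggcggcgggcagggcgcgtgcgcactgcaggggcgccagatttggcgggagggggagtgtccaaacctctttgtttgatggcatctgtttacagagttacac
Kit: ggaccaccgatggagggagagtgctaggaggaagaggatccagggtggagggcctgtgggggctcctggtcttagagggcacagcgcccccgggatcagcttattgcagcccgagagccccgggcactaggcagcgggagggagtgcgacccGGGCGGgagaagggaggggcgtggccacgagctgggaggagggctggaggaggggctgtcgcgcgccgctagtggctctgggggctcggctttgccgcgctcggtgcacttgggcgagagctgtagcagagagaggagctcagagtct
Cd34: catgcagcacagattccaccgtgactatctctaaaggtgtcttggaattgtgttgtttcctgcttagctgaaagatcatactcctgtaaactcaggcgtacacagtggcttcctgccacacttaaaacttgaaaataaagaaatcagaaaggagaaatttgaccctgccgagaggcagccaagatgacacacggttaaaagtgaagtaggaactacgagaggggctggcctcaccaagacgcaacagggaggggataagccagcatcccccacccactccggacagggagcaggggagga
Of 32851 mouse promoters of this length 35.7% held the GC box and 16.3% the E-box. Myb had 3 GC box matches, of which a pair overlaps, and Kit had 1. Sox4 had 1 E-box match, and none of the 7 motifs searched matched in Cd34. The other 5 were a GATA motif (AGATAA, 11.2% of promoters), an ETS motif (CCGGAAG, 8.86%), a RUNX motif (TGTGGT, 16.8%), a MYB motif (AACGG, 17.4%) and the TATA box (TATAAA, 13.6%), and none of them matched in these 4 promoters. Over the 15 promoters listed for the 10 genes, 8 held the GC box and each other motif matched in 1 or 2. Both promoters of Kit overlap almost entirely and share the same GC box match, so these 15 are not all separate. No motif of this search matched in both of the genes that rose, or in both of those with the largest falls. In base composition, 75.0% of the bases were G or C in Myb, 69.0% in Kit, 52.0% in Sox4 and 50% in Cd34, against a median of 52.7% over all promoters.

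Among the surface proteins, all 3 fell. Cd34 had intensities of 42.8, 42.8 and 33.8 in sorted replicates 1, 2 and 3, against 441, 445 and 468 in presort replicates 1, 2 and 3. The sorted values lay below the median probe set and the presort values lay close together. With no detection calls, the sorted values are not shown to be above background, so the size of this fall is not settled. The difference was -3.51 ± 0.13 (SE, log2, limma adjusted p = 1.13e-05), the 44th lowest of all 18193 genes, and the single probe set of Cd34 gave -3.36, -3.38 and -3.79 in pools 1, 2 and 3.

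Kit had intensities of 106, 69.7 and 80.2 in sorted replicates 1, 2 and 3, against 702, 763 and 1021 in presort replicates 1, 2 and 3. Each sorted value was well under each presort value, and presort replicate 3 was the highest. The difference was -3.28 ± 0.20 (SE, log2, limma adjusted p = 2.33e-05), the 98th lowest of all genes. A second, dim probe set of Kit read 60.2, 68.0 and 66.8 in sorted and 72.5, 87.9 and 93.2 in presort samples and did not pass over all probe sets at -0.37 ± 0.13 (adjusted p = 0.0731), so the mean of both gave -1.83. With probe sets that differ this much and no detection calls, the size of the fall of Kit is not settled.

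Flt3 had intensities of 183, 213 and 244 in sorted replicates 1, 2 and 3, against 320.5, 396 and 394 in presort replicates 1, 2 and 3. The groups did not overlap, and replicate 1 was the lowest in each. The difference of its single probe set was -0.80 ± 0.15 (SE, log2, limma adjusted p = 0.00400), at -0.81, -0.89 and -0.69 in pools 1, 2 and 3. This call was lost without pool 2 (-0.75, adjusted p = 0.0507).

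Gata2, a zinc finger factor of stem cells and of mast cells and basophils, fell as well. It had intensities of 145, 157 and 228 in sorted replicates 1, 2 and 3, against 427, 413 and 452 in presort replicates 1, 2 and 3. The sorted arrays were more spread than the presort arrays, and sorted replicate 3 was the highest of them. The difference was -1.32 ± 0.18 (SE, log2, limma adjusted p = 0.000763), and a second probe set, at 58.1, 57.5 and 73.6 in sorted and 101, 123 and 142 in presort samples, fell by 0.95 ± 0.16 (adjusted p = 0.00396 over all probe sets).

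Erg, an ETS domain factor needed for stem cell maintenance, had intensities of 240.3, 199 and 317 in sorted replicates 1, 2 and 3, against 640.2, 643 and 743 in presort replicates 1, 2 and 3. Every presort array lay above every sorted array. The difference was -1.44 ± 0.18 (SE, log2, limma adjusted p = 0.000481), with -1.41, -1.69 and -1.23 in pools 1, 2 and 3. The other probe set of Erg was dim and did not pass at 0.06 ± 0.14 (adjusted p = 0.796), and the mean of both was -0.69, so the size of the fall of Erg is not settled.

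Hoxa9, a homeobox factor of stem and myeloid progenitor cells, had intensities of 139, 102 and 161 in sorted replicates 1, 2 and 3, against 439, 271 and 382 in presort replicates 1, 2 and 3. The groups did not overlap, and replicate 2 was the lowest in each. The difference was -1.44 ± 0.22 (SE, log2, limma adjusted p = 0.00167). A second probe set, at 122, 148 and 166 in sorted and 137, 187 and 153 in presort samples, overlapped between the groups and did not pass at -0.13 ± 0.16 (adjusted p = 0.650), and the mean of both was -0.78. In sorted samples the second set was not dimmer than the first, at a mean of 145 against 134. With probe sets that differ this much, the size of the fall of Hoxa9 is not settled.

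Mecom, a zinc finger factor of stem cells, and Meis1, the homeobox partner of Hoxa9, did not pass. Mecom read 37.6, 33.0 and 34.0 in sorted replicates 1, 2 and 3, against 47.5, 39.6 and 51.5 in presort replicates 1, 2 and 3, all below the median probe set. The groups did not overlap, at a difference of -0.40 ± 0.13 (SE, log2, limma adjusted p = 0.0514), and with the pool as a replicate block the same difference passed (adjusted p = 0.0425). The other probe sets of Mecom stood at -0.26 and 0.17, and neither passed.

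Meis1 read 194, 97.4 and 152 in sorted replicates 1, 2 and 3, against 138, 139 and 135 in presort replicates 1, 2 and 3. The presort arrays were nearly equal, and the sorted arrays lay on both sides of them. The difference was 0.05 ± 0.23 (SE, log2, limma adjusted p = 0.905), with 0.49, -0.51 and 0.17 in pools 1, 2 and 3, and the 2 dimmer probe sets, at 0.25 and 0.09, did not pass.

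Sox4, an HMG box factor, and Myb, a factor of progenitor growth, were the 2 regulators that rose. Sox4 had intensities of 16106, 12329 and 15211 in sorted replicates 1, 2 and 3, against 3779.6, 1977 and 1404 in presort replicates 1, 2 and 3. The presort arrays differed among themselves, with replicate 1 the highest. The difference was 2.72 ± 0.33 (SE, log2, limma adjusted p = 0.000428), the 75th highest of all genes, with 2.09, 2.64 and 3.44 in pools 1, 2 and 3.

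Of the 8 probe sets of Sox4 6 rose, by 1.74 to 2.72 on the log2 scale, and 2 dim ones did not pass, at 0.12 and 0.09. All 6 rose least in pool 1, by 0.72 to 2.09, and the set with the least rise there stood at 2.60 and 3.01 in pools 2 and 3. The probe set next in brightness read 3265, 4585 and 4708 in sorted and 984, 677 and 527 in presort samples. It rose by 2.55 ± 0.25 (SE, adjusted p = 0.000264 over all probe sets), and the mean of all 8 gave 1.70. The platform annotation ties several of these probe sets to the same transcript record, so they are not independent readings.

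Myb had intensities of 18888, 16106 and 16405 in sorted replicates 1, 2 and 3, against 9743, 7143 and 7329.98 in presort replicates 1, 2 and 3. Replicate 1 was the highest in each group and the groups did not overlap. The difference was 1.10 ± 0.15 (SE, log2, limma adjusted p = 0.000855), with 0.95, 1.17 and 1.16 in pools 1, 2 and 3. This probe set is of a kind that can match several transcripts, but all 3 probe sets of Myb rose, the others by 1.18 ± 0.12 (7010, 7381 and 7558 in sorted against 3676, 2996 and 3025 in presort samples) and 1.59 ± 0.20 (915, 1209 and 1415 in sorted against 470, 369 and 329 in presort samples).

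Over the 27 probe sets of the 10 genes 9 were called higher and 7 lower, and 11 did not pass, where 13.5% of all 34945 probe sets were called higher and 15.3% lower. No gene had a probe set called higher and another called lower.

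**Figure D2:**
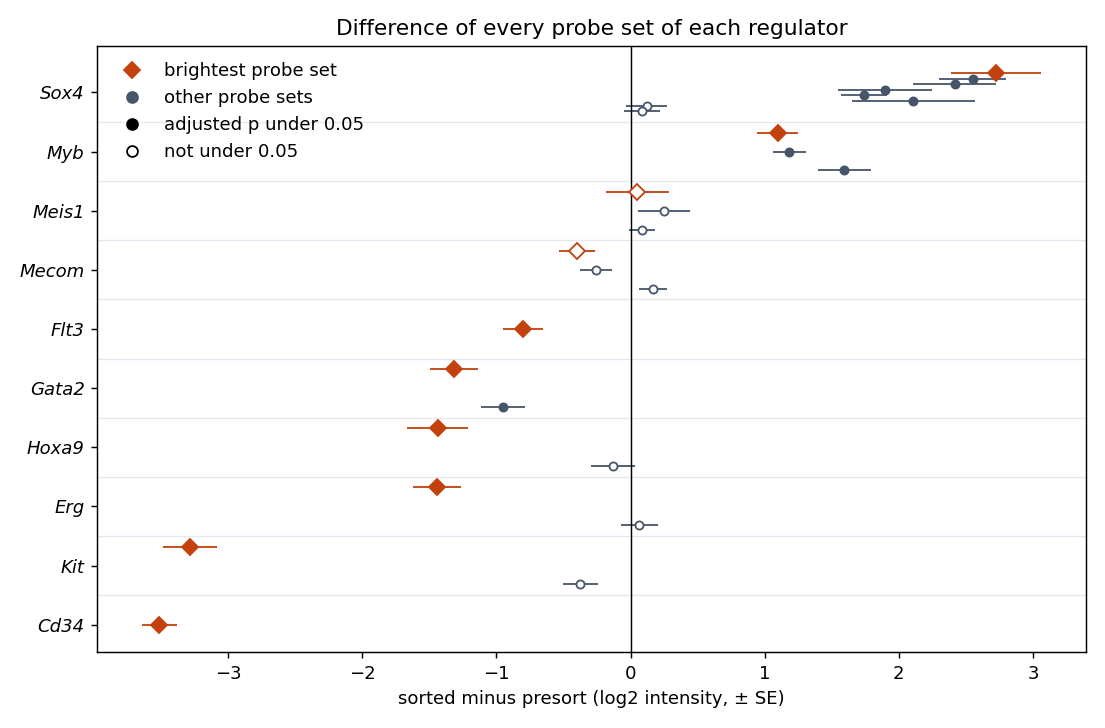
Difference between sorted and presort samples for each of the 27 probe sets, with SE from limma, on the log2 scale. Red diamonds are the brightest probe set of a gene, which stands for it in the text, grey circles are its other probe sets, and filled marks have an adjusted p under 0.05. The probe sets of Sox4 and Myb that pass all lie right of 0, and Kit, Erg and Hoxa9 each have a filled mark left of 0 and an open one between -0.37 and 0.06.

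Of the close relatives of these genes, Csf1r, Gata1, Mybl2 and Pbx3 fell, Prdm16 rose and the others measured did not pass. Of the class III receptor kinases, Csf1r, the receptor of macrophage colony-stimulating factor, fell by 2.79 ± 0.40 (SE, log2, limma adjusted p = 0.00114), while Pdgfrb at -0.19 and Pdgfra at 0.00 did not pass. Podxl and Emcn, set beside Cd34 because they are sialomucins too, stood at 0.25 and -0.07 and did not pass. Gata1, the erythroid GATA factor, fell by 3.04 ± 0.18 (adjusted p = 2.33e-05), and Gata3, Gata4, Gata5 and Gata6 did not pass, from -0.25 to 0.23. Mybl2, the Myb relative of dividing cells, fell by 2.56 ± 0.26 (adjusted p = 0.000164) where Myb rose, and Mybl1 did not pass at -0.85.

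Fli1, the nearest relative of Erg, did not pass at 0.17 ± 0.26 (limma adjusted p = 0.690). Of the Hoxa genes other than Hoxa9, 0 of 8 measured passed (limma; 1 had an unadjusted p under 0.05), and they ran from -0.27 for Hoxa4 to 0.28 for Hoxa3. The second probe set of Hoxa9, at -0.13, lay within this range and did not pass either. Of the relatives and partners of Meis1, Pbx3 fell by 1.39 ± 0.15 (adjusted p = 0.000242), and Meis2, Meis3, Pbx2, Pbx4 and Pknox1 did not pass. Prdm16, the relative of Mecom, rose by 0.50 ± 0.15 (adjusted p = 0.0354), a dim gene at a mean of 5.95 in sorted and 5.44 in presort samples. Its call was lost without sorted replicate 1 or 2, presort replicate 1 or 2, or pool 1 or 2 (adjusted p from 0.0821 to 0.249). Sox11 and Sox12, the relatives of Sox4, did not pass at -0.10 and -0.27.

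**Figure D3:**
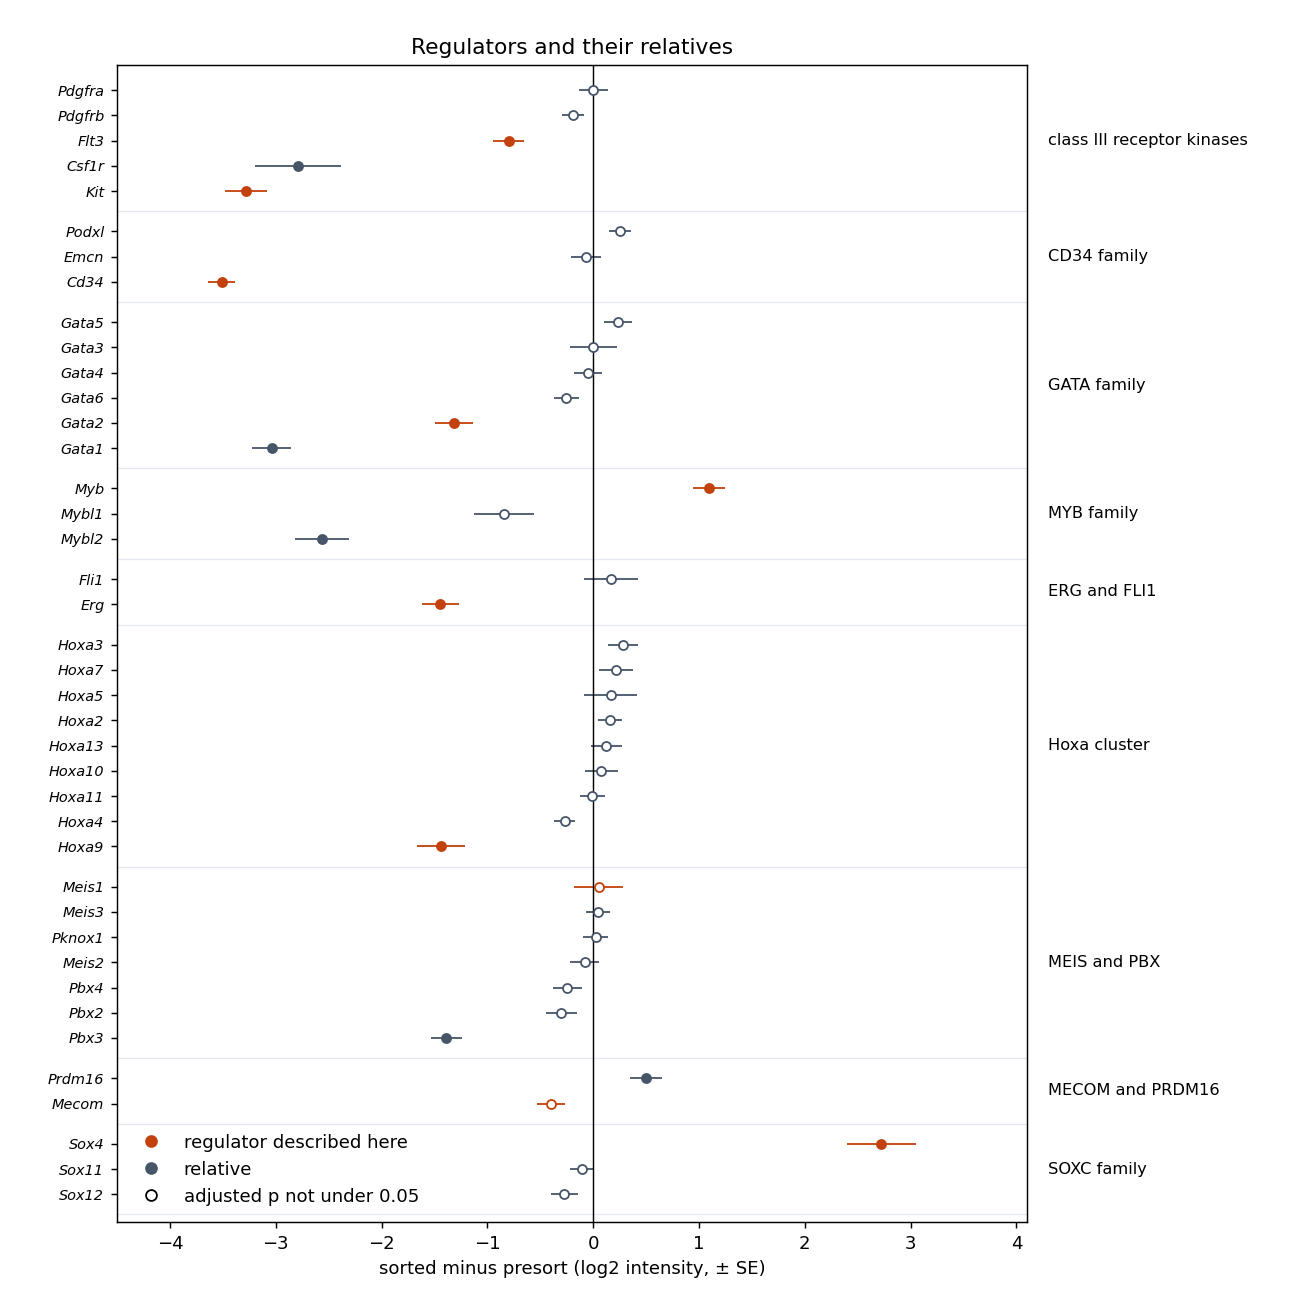
Differences between sorted and presort samples, with SE from limma on the log2 scale, for the regulators (red) and their relatives (grey), grouped by family. Emcn is grouped with Cd34 as a sialomucin. Filled circles have an adjusted p under 0.05. Each gene is drawn by its brightest probe set. In the Hoxa cluster only Hoxa9 has a filled circle, though its other probe set did not pass, and in the MYB family Myb lies right of 0 and Mybl2 left of it.

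Other genes of the same system were counted from lists. Of 24 measured factors of stem and progenitor cells outside the 10 genes, not all of them transcription factors, 6 rose and 5 fell, with a median of 0.06. The early response factor Egr1 rose by 3.67 ± 0.94 (SE, log2, limma adjusted p = 0.0187) and the pseudokinase gene Trib2 by 3.50 ± 0.32 (0.000104). Presort replicate 1 stood apart for Egr1, at 3527 against 385 and 171 in presort replicates 2 and 3. The difference of Egr1 was 4.93 without that array and 2.75 without presort replicate 3, and its call was lost without sorted replicate 3, presort replicate 2, pool 2 or pool 3 (adjusted p from 0.0563 to 0.128). Tal1, a factor of stem and erythroid cells, fell by 3.09 ± 0.17 (1.94e-05) and Lmo2, its binding partner, fell by 1.83 ± 0.24 (0.000618). Of 17 measured surface markers 3 rose and 8 fell, with a median of -0.53. Fcgr3, an Fc receptor used to part myeloid progenitors, stood at -3.11, Prom1 at -2.98, the tetraspanin gene Cd9 at -2.88 and Cd93, also a marker of early B cells, at 1.34, all with an adjusted p under 0.05. The call of Cd93 was lost without pool 3 (0.0577).

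Of 6 measured ligands and niche genes 0 rose and 3 fell (limma; 3 had an unadjusted p under 0.05). Kitl, the ligand of Kit, fell by 1.81 ± 0.23 (SE, log2, limma adjusted p = 0.000647), the chemokine gene Cxcl12 fell by 2.42 ± 0.32 (0.000699) and the adhesion gene Vcam1 fell by 2.62 ± 0.45 (0.00275). Of 16 measured signalling genes downstream of Kit and Flt3 4 rose and 3 fell, with a median of 0.09. The kinase gene Fes fell by 2.07 ± 0.17 (6.93e-05), and the ubiquitin ligase gene Cblb rose by 1.89 ± 0.28 (0.00130), Sh2b3, an adaptor that restrains Kit signalling, by 1.15 ± 0.22 (0.00454) and the phosphatase gene Ptpn6 by 0.72 ± 0.16 (0.00911). The call of Ptpn6 was lost without pool 3 (0.102).

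Markers of several marrow cell types also differed between the groups, and their part in the differences of the regulators was not tested. The scale has no 0, so no marker was at 0. Of 12 measured B cell markers 12 rose, and their summed intensity was 86516, 79828.5 and 88701 in sorted replicates 1, 2 and 3, against 24600.5, 15084 and 13127 in presort replicates 1, 2 and 3. Presort replicate 1 was the highest presort array for this sum, as it was for Sox4 and Myb.

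Of 9 measured B progenitor markers other than Sox4 and Erg, 6 rose and 1 fell. Their median difference was 1.25, 1.92 and 2.58 in pools 1, 2 and 3. Sox4, Gata2, Hoxa9 and the erythroid and mitosis lists below were also lowest in pool 1 and highest in pool 3. Myb was lowest in pool 1 too, at 0.95, 1.17 and 1.16. Genes and lists that rose and that fell thus shared this order of 3 pools, and sorted replicate 1 stood apart in RNA quality. What the order reflects was not tested. The sum of these B progenitor markers was 47168, 49127 and 53051 in sorted replicates 1, 2 and 3, against 21475, 14871 and 12169 in presort replicates 1, 2 and 3. Rag1, a recombinase subunit of B progenitors, rose by 2.75 ± 0.16 and the interleukin receptor gene Il7r by 2.34 ± 0.25 (SE, log2, limma adjusted p = 2.25e-05 and 0.000248), and Bach2, the member with the highest mean, by 2.22 ± 0.29. Igll1, a surrogate light chain gene, stood at -0.84 ± 0.24 (adjusted p = 0.0318), and Dntt at -0.79 and Vpreb1 at -0.77 did not pass, 3 genes named after their values were seen.

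Mast cells, known for Kit and Gata2, and basophils, known for Gata2, were read from a joint marker list. Of 11 measured mast cell and basophil markers 6 fell and 0 rose (limma; 7 had an unadjusted p under 0.05), and their summed intensity was 866, 1547 and 1330.3 in sorted replicates 1, 2 and 3, against 5247, 5505 and 7523 in presort replicates 1, 2 and 3. The protease genes Mcpt8 at -3.38 and Cpa3 at -2.82 and the receptor gene Fcer1a at -2.60 were the largest of these falls, while Tpsb2, Tpsab1, Mcpt4, Cma1 and Csf1 did not pass, from -0.37 to 0.17. All 13 measured erythroid markers fell, with a median of -2.57, and the scatter gate that removed erythrocytes applied to the sorted samples alone.

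Of 8 measured primary granule markers of early myeloid cells 7 fell, and their sum was 16596, 21872 and 15394 in sorted replicates 1, 2 and 3, against 60597, 61383 and 68238 in presort replicates 1, 2 and 3. All 15 measured mitosis genes fell, with a median of -2.60, at a sum of 10203, 14481 and 16289.8 in sorted against 64628, 65437 and 65077 in presort replicates 1, 2 and 3. All 10 measured markers of mature neutrophils fell, with a median of -2.33. Of 7 measured plasmacytoid dendritic cell markers other than Flt3, which these cells also carry, 3 rose and 3 fell, with Spib, an ETS factor shared with B cells, at 2.27, Tcf4, a factor of these cells, at 1.42 and the chemokine receptor gene Ccr9 at -1.53. The call of Ccr9 was lost without presort replicate 1, 2 or 3, sorted replicate 1 or 2, or pool 1 or 2 (adjusted p from 0.0547 to 0.208), and its difference was -2.14 without pool 3. Among 12 measured endothelial markers 1 rose and 3 fell (median -0.21), and Cdh5, the vascular cadherin, named here after its value was seen, did not pass at -0.20. Among 9 measured megakaryocyte markers 4 fell and 0 rose (limma; 4 had an unadjusted p under 0.05), with a median of -1.35. The call of Gp1bb, at -2.02, was lost without pool 3 (adjusted p = 0.101). Vwf, at -1.87, is on the endothelial list too. Its call was lost without sorted replicate 1 or 3, presort replicate 2 or 3, or pool 3 (adjusted p from 0.106 to 0.331).

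**Figure D4:**
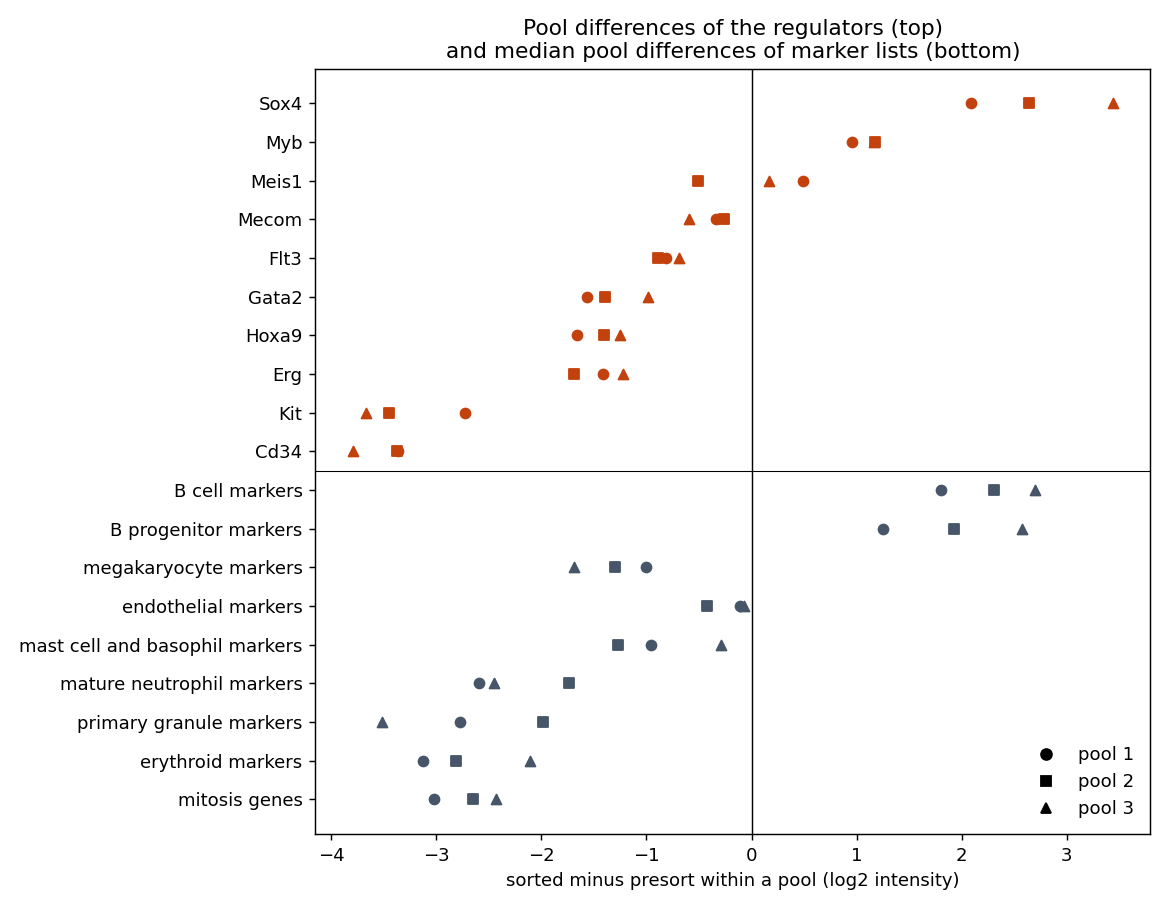
Difference between the sorted and presort array of each pool, on the log2 scale, for the 10 regulators (red, top) and the median over the genes of 9 marker lists (grey, bottom), with the pool given by the shape. Sox4 and the B cell and B progenitor lists lie right of 0 with pool 1 lowest and pool 3 highest. Gata2, Hoxa9 and the erythroid and mitosis lists lie left of 0 in the same order of pools. Kit and Cd34 lie between -2.73 and -3.79 in every pool.

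The gene most like each regulator over the 6 arrays was found by the root mean square distance between log2 values centred on each gene's mean. These were Lockd for Kit (distance 0.12), Hspa14 for Flt3 (0.04), Tlcd4 for Cd34 (0.09), Tmpo for Gata2 (0.06), Elk3 for Myb (0.06), Shoc2 for Mecom (0.05), St3gal4 for Erg (0.07), Chst12 for Hoxa9 (0.11), Fars2 for Meis1 (0.06) and Zfp354c for Sox4 (0.12). Pearson correlations of these pairs ran from 0.982 to 0.999 over 6 arrays, which share the same split into sorted and presort samples.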

How the data were processed

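Labelled RNA of 6 mouse marrow samples was read on Affymetrix 3' arrays. The authors deposited intensities, and the submitters' processing notes name RMA, with its version not given in the sources used here. No source states the scale, and from the values it was taken as linear, that is, as RMA values turned back from log2, since every array runs from 9.71 to 38492. All arrays share 1 distribution, so a change in total RNA per cell leaves no trace. Log2 was taken with no pseudocount. Of 45101 probe sets 34945 carried 1 symbol of the platform annotation and were used, 932 carried several, 9160 had none here and 64 were controls. The brightest probe set over the 6 arrays stood for a gene.

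The comparison of sorted with presort samples used lmFit and eBayes of limma 3.58.1 under R 4.3.3 (two-sided, 4 residual degrees of freedom before moderation), with Benjamini-Hochberg adjustment over 18193 genes, or over 34945 probe sets where a single probe set is given. Steps were tested on simulated data. Figures were drawn with matplotlib 3.10.9. The number of arrays limits the precision.

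The 10 genes and all lists were chosen with earlier results of these data known. The text names each of the 10 genes, their relatives, and from some of the other lists at most 3 called genes with the largest differences and the gene with the highest mean; some genes that did not pass are named beside them. Several lists are given by counts and medians alone. Numbers pair the samples, since a pool was split into both, per the labels; deviations of same-numbered arrays from their group means correlated at 0.39, 0.20 and -0.03 in pools 1, 2 and 3. The pool as a replicate block was an alternative, as were leaving out arrays or pools, a filter on dim genes (33.3%), quantile normalization, median centring, the mean of probe sets, leaving out _x_at and _s_at probe sets, a trended robust prior, array weights and a beta-actin covariate. The renin gene is not reported here.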

Additional observations from a re-analysis of the deposited data

How the results depend on the processing

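Under all 18 alternatives 2 regulators were called higher, and 5 to 7 lower against 6. Kit, Cd34, Gata2, Erg, Hoxa9, Sox4 and Myb kept their direction and their call in each, and Flt3 in 17 of 18, with adjusted p from 0.00175 to 0.0507. No alternative took the other probe set of Kit, Erg or Hoxa9 alone. Those sets stood at -0.37, 0.06 and -0.13 and did not pass, so these 3 calls depend on the probe set used. With the replicate block 2 regulators were called higher and 7 lower, since Mecom passed (adjusted p = 0.0425), and no other regulator's call changed. Mecom also passed without presort replicate 2 (-0.51, adjusted p = 0.0336), without sorted replicate 1 (-0.46, 0.0458), with the trended robust prior (0.0340) and with array weights (-0.44, 0.0422), with adjusted p from 0.0336 to 0.370 over its 17 alternatives; it was among the dimmest 33.3% of genes and had no value without them. Meis1 had no settled sign: it stood at -0.17 without sorted replicate 1 and without pool 1, at -0.0080 without pool 3, at -0.35 with the beta-actin covariate and at up to 0.33 without pool 2, and passed in none. The cause was not tested. Over all genes 2629 were called higher and 3296 lower; leaving out arrays or pools gave 1544 (without pool 3) to 2608 and 2362 to 3256. After median centring of the arrays 5162 were called higher, the share of called genes that were higher was 66.7% against 44.4%, and the median of all genes moved to 0.23 from -0.0021, with Flt3 at -0.57, Mecom at -0.17 and Meis1 at 0.28. The arrays have no detection calls, so for Mecom and the dim probe sets signal over background limits what can be seen.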
